A study of Homo sapiens with 6 samples.

Results

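The tables give FPKM, fragment counts scaled to transcript length and library size, for transcripts listed only by a gene ID and a genomic span, and most spans are those of non-coding transcripts. The coding-span rows are those whose gene ID and span exactly match transcripts of the GENCODE 44 annotation (GRCh38) that are all protein-coding. There were 347 such rows of 81818 (0.424%), from 262 genes, and they matched 350 annotated transcripts. The libraries came from A549, an established human lung adenocarcinoma line, and from A549/DDP (spelled A549/DPP in the labels), its cisplatin (DDP)-resistant derivative, with 3 rRNA-depleted libraries from each. Both lines were used at passages 6 to 8, and only the medium of A549/DDP held DDP, at 1 µg/mL, so the effect of the drug and that of resistance cannot be told apart. Each kind of cell was a single line, and no label says that its libraries came from separate cultures, so the p values measure the difference against a spread between libraries that may be technical.

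A protein-coding gene is transcribed into several isoforms, which share exons and differ in start sites, splice sites and ends. Some carry the whole coding sequence, some a part of it, and others keep an intron or have no defined coding sequence. MANE Select is the 1 transcript that the annotation projects chose to stand for a gene. A span gives the first and last base of a transcript but not its exons, so a row named here by a GENCODE transcript has that transcript's ends, and its exons were not seen in the tables.

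Few coding-span rows carry the reference coding sequence of their gene. Of the 350 matched transcripts, 4 are MANE Select, 57 carry the CCDS tag of agreed coding sequences and 28 cover the whole MANE Select coding sequence. The coding length had a median of 370 bases (3 to 9417), with a median of 24.54% of the longest coding sequence of the gene. Of the 347 rows, 178 had both ends of the coding sequence annotated, while 68 lacked the start and 118 lacked the end. Of the 345 transcripts with a MANE Select transcript to compare with, 180 had no coding base outside it, 145 began at its first coding base and 88 ended at its last. In 69 rows the matched transcript had no exonic base and no splice junction of its own, so every base and junction in it also belongs to another annotated transcript of the gene. This property was computed after values had been seen.

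**Figure D1:**
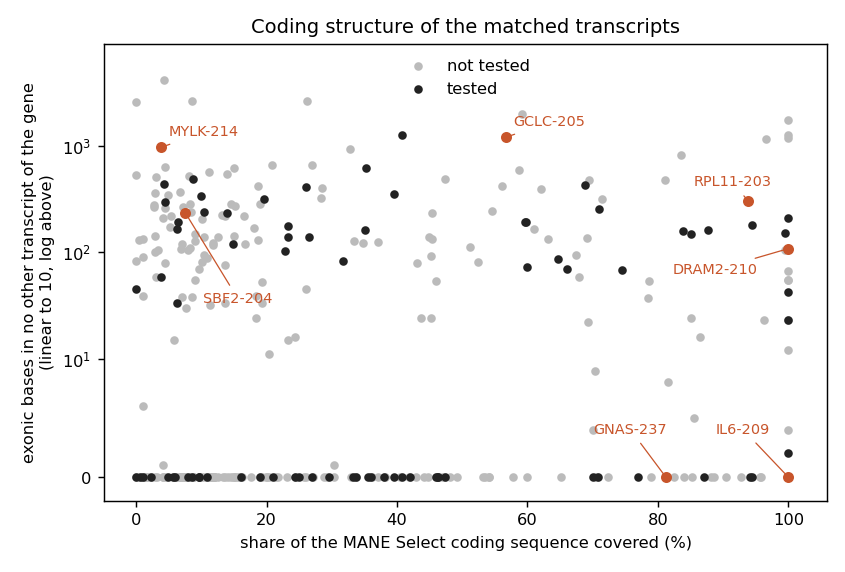
Each point is a matched transcript. The horizontal axis is the share of the MANE Select coding sequence that it covers, in percent, and the vertical axis the number of exonic bases found in no other transcript of its gene. Dark points are transcripts of rows that were tested, and orange points those labelled. IL6-209 and GNAS-237 lie at 0 exonic bases of their own, and GCLC-205 at 1198.

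The sequences of 5 transcripts are shown, because the results below turn on them, the 2 rows called and 3 of those with the next largest differences, and because the letters show how such a coding span departs from the MANE Select sequence. They were chosen after values had been seen. They are coding bases of GENCODE 44 transcripts read from the reference, not from these libraries. Capitals mark coding bases that are outside the MANE Select coding sequence of the gene.
IL6-209, around coding bases 20 to 181: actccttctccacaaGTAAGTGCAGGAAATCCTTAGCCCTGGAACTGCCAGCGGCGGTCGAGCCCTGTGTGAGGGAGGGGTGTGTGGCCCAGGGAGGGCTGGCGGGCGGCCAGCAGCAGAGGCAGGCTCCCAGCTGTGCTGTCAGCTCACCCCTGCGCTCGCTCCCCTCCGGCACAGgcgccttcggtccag
GNAS-237, first 90 coding bases: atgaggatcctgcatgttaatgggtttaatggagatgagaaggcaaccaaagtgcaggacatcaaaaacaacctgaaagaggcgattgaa
RBCK1-205, first 90 coding bases: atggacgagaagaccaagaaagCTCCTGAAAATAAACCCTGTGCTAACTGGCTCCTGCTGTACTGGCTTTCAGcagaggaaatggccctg
YKT6-208, last 27 coding bases: gccttctataaaactAAAATATTTAAT
TASOR2-208, first 90 coding bases: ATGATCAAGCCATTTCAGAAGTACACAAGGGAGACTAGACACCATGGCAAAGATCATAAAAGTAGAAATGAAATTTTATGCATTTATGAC
The bases run over splice junctions in GNAS-237, RBCK1-205, YKT6-208 and TASOR2-208. IL6-209 holds the whole 636-base coding sequence of IL6-201 plus 162 bases, a stretch that begins with gtaagt and ends with acag, the letters usual at the ends of an intron. GNAS-237 has 960 coding bases, all within GNAS-210, of which they make up 81.22%. RBCK1-205 starts as the MANE Select transcript does and then departs from it, sharing 167 of its 366 coding bases. Every exonic base and junction of RBCK1-205 also belongs to another annotated RBCK1 transcript. In YKT6-208 only the last 12 coding bases are outside the MANE Select coding sequence, of which it covers 94.44%. None of the 214 coding bases of TASOR2-208 is in the MANE Select sequence.

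Most coding-span rows were low. Of the 347, 99 (28.5%) were listed at 0 in every library, against 34.8% of all rows, 105 were above 0 in all 6 libraries and 143 in 1 to 5 of them. The mean over the libraries was 5 FPKM or more in 18 rows, 1 to 5 FPKM in 44 and above 0 but under 1 FPKM in 186. The filter of 0.5 FPKM in at least 3 libraries left 89 rows of 77 genes (25.6%, against 25.3% of all rows), and 6 of these reached 0.5 FPKM in libraries of 1 line only, 2 in A549 and 4 in A549/DDP. Of the MANE Select transcripts, HAX1-201 was listed at 4.98 FPKM in A549/DDP replicate 3 and at 0.077 or less in the other libraries, the row of CD247-201 reached at most 0.049 FPKM, and PRR23E-201 and ENST00000611641 were listed at 0 throughout. The depth of the libraries is unknown, since the tables hold no counts. A difference among low rows may therefore be beyond what these libraries can show.

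The 6 libraries separated by line on the first principal component (39.8% of the variance over the 20663 rows tested), and A549 replicate 2 stood apart from the other libraries on the second (18.2%). By gene sums, which are mostly of non-coding rows here, epithelial and A549 markers added up to 557 to 776 FPKM in A549 and 2191 to 2840 FPKM in A549/DDP. KRT8 made up most of the difference (268 to 535 against 1491 to 2043 FPKM), and 5 of the 7 markers were higher in every A549/DDP library, while KRT19 and EPCAM were low in both lines and overlapped. The 3 endothelial markers in the tables were at 0 in every library, the 4 blood markers summed to at most 0.138 FPKM and the 5 fibroblast markers to at most 0.964 FPKM.

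Only 2 of the 89 tested rows changed between the lines by the thresholds of the study (limma on log2(FPKM + 1), adjusted p below 0.01 with a log2 fold change above 1 or below -1), and both were lower in A549/DDP. They were the rows of interleukin 6, a cytokine of inflammation, and of GNAS, which encodes the alpha subunit of the stimulatory G protein. No row was called higher. Both are also the 2 tested rows that reached 0.5 FPKM in A549 libraries only, so they entered the test through the line where they were high and had to differ. With no filter on low values neither was called, with limma adjusted p values of 0.0227 for IL6-209 and 0.0387 for GNAS-237. This is 2.25% of the coding-span rows tested, while 0.552% of all 20663 rows were called (0.198% lower and 0.353% higher), and with 2 rows the share says little about the rows as a class. An adjusted p under 0.05 was reached by 7 coding-span rows, 4 lower and 3 higher, against 4.09% of all rows. An unadjusted p under 0.05 was reached by 20, 12 lower and 8 higher, against 21.7% of all rows. Among the 7, all 3 higher rows and 2 of the 4 lower rows reached 0.5 FPKM in libraries of 1 line only. They were tested because they were high in that line, so the count of 7 is no support for an excess over all rows. Fold changes here are differences of log2(FPKM + 1), which understate changes at low levels.

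IL6-209 (ENSG00000136244, chr7:22727200-22731694, plus strand) was listed at 5.28, 8.37 and 7.87 FPKM in the A549 libraries and at 0.455, 0 and 0 FPKM in the A549/DDP libraries. Every A549 library was above every A549/DDP library. The mean fell from 7.17 ± 1.66 to 0.152 ± 0.262 FPKM (SD, n = 3 each), a log2 fold change of -2.83 (SE 0.284, limma adjusted p = 0.0051). It missed the threshold at a pseudocount of 0.1 or 0.01 (limma adjusted p = 0.0172 and 0.0843). The other listed row of IL6, whose span matched no GENCODE transcript, was at 2.66 ± 0.777 and 0.271 ± 0.170 FPKM, with a log2 fold change of -1.51 and a limma adjusted p of 0.0234, which missed the threshold. This other row was also under 0.5 FPKM in every A549/DDP library, so it passed the filter through A549. The gene sum of IL6 was called lower, from 7.18, 11.8 and 10.5 FPKM to 0.920, 0.192 and 0.154 FPKM (log2 fold change -2.94, limma adjusted p = 0.0014). Most of the A549 sum is IL6-209 itself, so the sum is no separate support. In A549/DDP the sum reached 0.5 FPKM in replicate 1 only, so it too passed the filter through A549. No exonic base or junction is particular to IL6-209, so fragments assigned to it could also have come from another IL6 isoform. Exons of IL6-AS1 and STEAP1B overlap it on the opposite strand, and neither gene had a value above 0.

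GNAS-237 (ENSG00000087460, chr20:58889171-58911179, plus strand) was listed at 13.6, 77.8 and 30.4 FPKM in A549 and at 0 in all 3 A549/DDP libraries. The lines did not overlap, and the A549 libraries themselves spread from 13.6 to 77.8, with replicate 2 the highest. The log2 fold change was -5.05 (SE 0.562, limma adjusted p = 0.00678), which depends on the pseudocount because 1 line is at 0. As a sum the other GNAS rows, with the other coding-span rows of the gene included, were not lower. Their sum was 22.7 FPKM in A549 and 36.2 FPKM in A549/DDP (log2 fold change 0.68), and GNAS-231, a retained-intron row, was at 2.31, 1.02 and 4.92 against 5.04, 7.42 and 42.5 FPKM (log2 fold change 1.94, limma adjusted p = 0.192). Of the 28 GNAS rows that are not coding-span rows, 3 were, like GNAS-237, above 0 in every A549 library and at 0 in every A549/DDP library. The highest of these GNAS rows was at 7.91, 0.434 and 0.548 FPKM in A549. GNAS-237 has no exonic base or junction of its own among 77 annotated GNAS transcripts, so a shift of fragments between overlapping isoforms in the quantification and a shift in the cells cannot be told apart in its row. The other 5 coding-span rows of GNAS failed the filter. GNAS-233, the highest of them, was listed at 1.37, 0.463 and 0.946 FPKM in A549 and at 0.00313 or less in A549/DDP.

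Both calls rested on all 6 libraries. When any single library of either line was left out, be it replicate 1, 2 or 3, neither row was called, with adjusted p values from 0.0129 to 0.0683 where a row was still tested, while both stayed lower in A549/DDP.

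**Figure D2:**
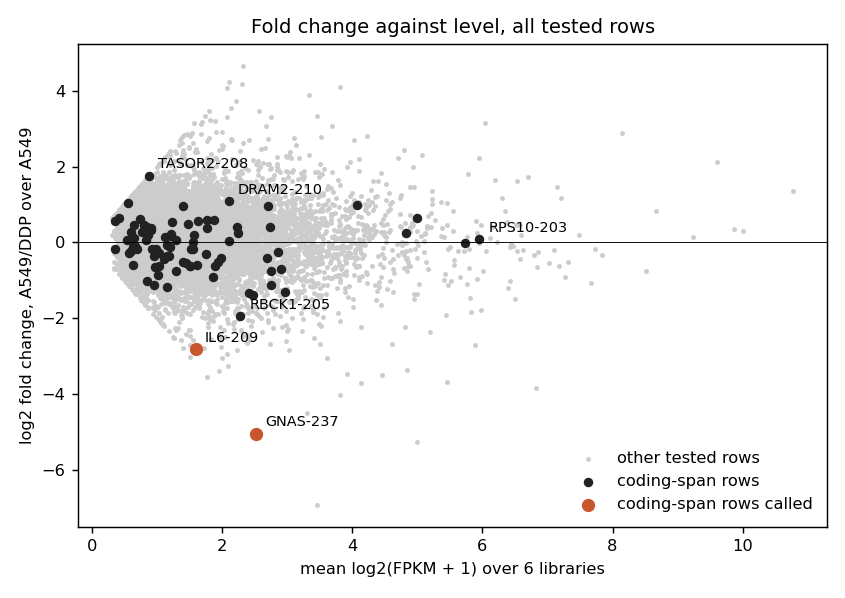
Each point is 1 of the 20663 rows tested, with the mean log2(FPKM + 1) over the 6 libraries on the horizontal axis and the log2 fold change of A549/DDP over A549 on the vertical axis. Dark points are the coding-span rows and the 2 orange points those called, IL6-209 at -2.83 and GNAS-237 at -5.05. The other coding-span rows lie between -1.94 (RBCK1-205) and 1.76 (TASOR2-208).

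The libraries of the 2 lines did not overlap in 28 of the 89 coding-span rows (31.5%), with 17 lower and 11 higher in A549/DDP. These include the 6 rows that were tested through 1 line only. Over all rows tested the share was 27.9%, with 8.91% lower and 18.9% higher. Among the 18 tested coding-span rows with no exonic base or junction of their own, 10 did not overlap. Among the other 71 it was 18. This split was made after values had been seen and was not tested. The median log2 fold change of the coding-span rows was -0.11, that of all rows 0.14, and 52.8% of the coding-span rows were below 0 against 38.9% of all rows. Quantile normalization brought the median of all rows to 0.00 and that of the coding-span rows to -0.24, with 53 of 89 below 0. Replicates spread somewhat more in the coding-span rows (median SD 0.41 log2 units, against 0.34). Among all rows, 0.325% of retained-intron rows were called, 0.46% of rows from coding genes with no coding sequence defined and 1.09% of lncRNA rows.

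**Figure D3:**
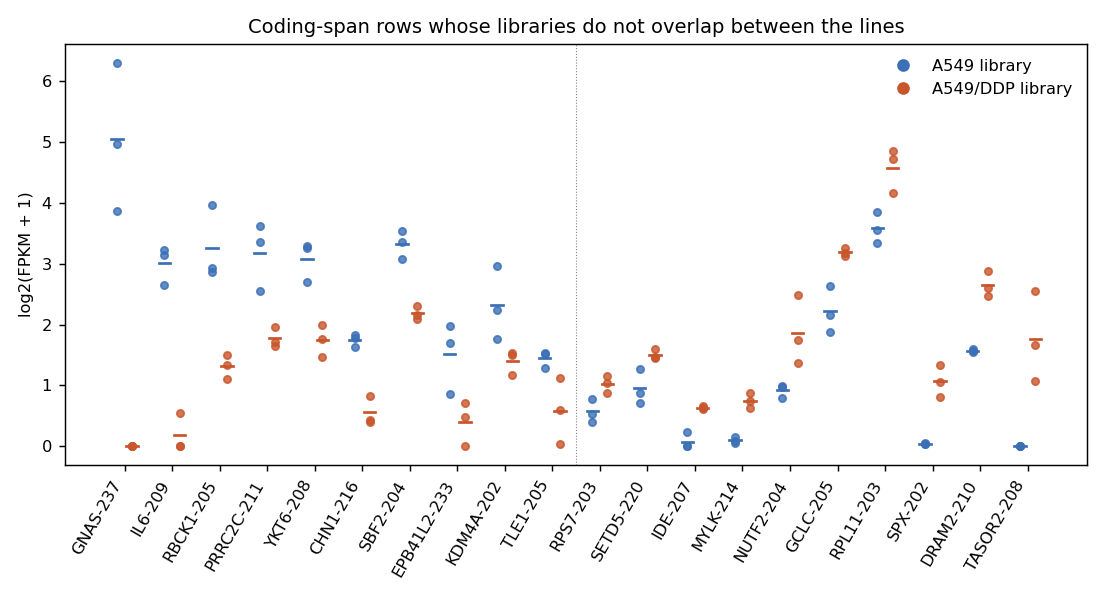
The value of each library, as log2(FPKM + 1), for the 10 coding-span rows with the lowest and the 10 with the highest log2 fold change among those whose libraries do not overlap. Blue points are A549 and orange points A549/DDP libraries, with a bar at each mean. GNAS-237 and IL6-209 are the 2 rows called, and the A549 points of GNAS-237 spread over the widest range.

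Among the rows lower in A549/DDP that were not called, RBCK1-205 came closest in size. RBCK1 encodes a subunit of the complex that builds linear ubiquitin chains. RBCK1-205 was at 14.6, 6.64 and 6.29 FPKM in A549 and at 1.15, 1.53 and 1.82 FPKM in A549/DDP (log2 fold change -1.94, SE 0.358, limma adjusted p = 0.0324). The other RBCK1 rows had a log2 fold change of -0.54. As no exonic base or junction is particular to RBCK1-205, its fragments could also have come from another RBCK1 isoform. CHN1-216, of a chimaerin that turns off the GTPase Rac, was at 2.08, 2.54 and 2.45 against 0.324, 0.782 and 0.347 FPKM (log2 fold change -1.19, SE 0.228, limma adjusted p = 0.0355). The other CHN1 rows summed to 3.23 and 2.05 FPKM, a smaller difference.

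YKT6-208, of a SNARE protein of vesicle fusion, was at 8.56, 5.50 and 8.76 FPKM in A549 and at 2.98, 2.41 and 1.78 FPKM in A549/DDP. It had a log2 fold change of -1.34 (limma adjusted p = 0.052) while the other YKT6 rows, at 36.5 and 32.9 FPKM, had -0.14. YKT6-208 has no exonic base or junction of its own, so its fragments could also have come from another YKT6 isoform. SBF2-204, of a myotubularin-related protein, was at 10.6, 9.25 and 7.44 against 3.47, 3.26 and 3.95 FPKM (log2 fold change -1.14, limma adjusted p = 0.0608). The lncRNA gene SBF2-AS1 overlaps it on the opposite strand at 4.17 to 7.56 FPKM, and the use of strand in the quantification is not stated, so fragments of the pair cannot be told apart here. PRRC2C-211 was at 4.87, 9.27 and 11.2 against 2.28, 2.14 and 2.90 FPKM (log2 fold change -1.40, limma adjusted p = 0.0667), EPB41L2-233, of a membrane skeleton protein, had a log2 fold change of -1.12, KDM4A-202, of a histone lysine demethylase, -0.92 and TLE1-205, of a transcriptional co-repressor, -0.87. None of these 4 passed the threshold.

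Of the rows higher in A549/DDP, TASOR2-208, SPX-202, MYLK-214 and IDE-207 reached 0.5 FPKM in A549/DDP libraries only, so they were tested because they were high there, and their p values below are no support for a difference. With no filter their limma adjusted p values ran from 0.119 (SPX-202) to 0.169 (IDE-207). TASOR2-208 was listed at 0 in all A549 libraries and at 2.17, 4.89 and 1.10 FPKM in the A549/DDP libraries, with a log2 fold change of 1.76 (SE 0.361, limma adjusted p = 0.0415). SPX-202, of the peptide hormone spexin, was at 0.0205, 0.0270 and 0.0375 against 1.52, 0.750 and 1.09 FPKM, with a log2 fold change of 1.03 (SE 0.183, limma adjusted p = 0.0294). The gene sum of SPX was called higher, from 0.113, 0.0300 and 0.158 FPKM in A549 to 3.01, 1.36 and 2.46 FPKM in A549/DDP (log2 fold change 1.54, limma adjusted p = 0.00857). The lines did not overlap at SPX, and its A549 libraries were all under 0.2 FPKM, so the sum too passed the filter through A549/DDP.

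MYLK-214, of myosin light chain kinase, was at 0.064, 0.109 and 0.043 against 0.667, 0.552 and 0.825 FPKM (log2 fold change 0.65, limma adjusted p = 0.0483). The other MYLK rows summed to 2.88 and 9.27 FPKM. DRAM2-210, of a lysosomal membrane protein linked to autophagy, covers the whole MANE Select coding sequence of its gene, and was at 2.02, 1.96 and 1.92 against 6.40, 5.04 and 4.52 FPKM (log2 fold change 1.08, SE 0.249, limma adjusted p = 0.0581). The A549 libraries of DRAM2-210 differed little among themselves, and the lines did not overlap.

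GCLC-205 and RPL11-203 are the rows in this group with the most exonic bases of their own besides MYLK-214, at 1198 and 303. GCLC encodes the catalytic subunit of the enzyme that starts glutathione synthesis. GCLC-205 was at 5.20, 3.47 and 2.69 FPKM in A549 and at 8.04, 8.58 and 7.72 FPKM in A549/DDP (log2 fold change 0.96, SE 0.293, limma adjusted p = 0.111). The other GCLC rows had a log2 fold change of -0.21, and GCLC-AS1, which overlaps the transcript on the opposite strand, was above 0 only in A549 replicate 2, at 0.519 FPKM. RPL11-203, of a protein of the large ribosomal subunit, was at 9.09, 13.4 and 10.8 against 25.5, 27.8 and 16.9 FPKM (log2 fold change 1.00, limma adjusted p = 0.12), and RPL11 has 4 named pseudogenes that could share its fragments. IDE-207 (insulin-degrading enzyme) had a log2 fold change of 0.56 with a limma adjusted p of 0.0635, NUTF2-204 (a nuclear transport factor) 0.95, SETD5-220 0.55 and RPS7-203 0.45, and none of these 4 was called. Among them, IDE-207, NUTF2-204 and RPS7-203 have no exonic base or junction of their own.

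**Figure D4:**
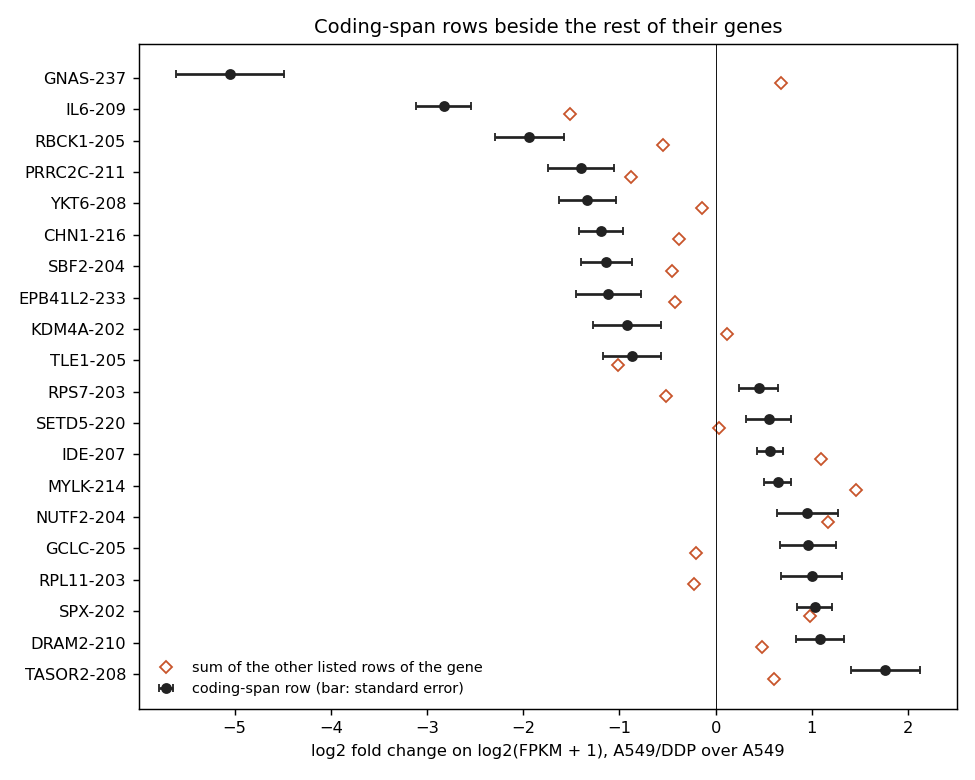
For the same 20 rows, the dark point is the log2 fold change of the coding-span row with its standard error and the open diamond that of the summed other rows of its gene, both on log2(FPKM + 1). GNAS-237 lies at -5.05 and the rest of GNAS at 0.68, while IL6-209 and the rest of IL6 both lie below 0, at -2.83 and -1.51.

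Whether a coding-span row moved apart from the rest of its gene was asked by a second limma fit, on the difference between the log2 value of a row and that of the other listed rows of its gene. None of 85 rows was called, against 0.00563% of the 17762 rows fitted, and 10 had an unadjusted p under 0.05, against 13.0% of all. GNAS-237 had the largest difference among the rows named here, -5.73, with a limma adjusted p of 0.0505. IL6-209 had -1.32 (limma adjusted p = 0.15) and RBCK1-205 -1.40 (limma adjusted p = 0.181). This fit used the same filter, which GNAS-237 and IL6-209 passed through A549 only. Their p values are therefore no support for a shift within the gene. Of the 1159 other rows of the 262 genes, 346 were tested, none was called and 71 had an unadjusted p under 0.05. Over all 20663 rows tested, 0.552% were called and 21.7% had an unadjusted p under 0.05. Neither count therefore sets the other rows of these genes apart. By gene sums, 2 of the 161 genes tested were called (IL6 lower and SPX higher), against 2.35% of all gene sums. Both sums passed the filter through the line where they were high.

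Grouped by the roles of their genes, the coding-span rows were few in each group. Of 6 rows of cytokines, growth factors and their receptors, 2 were tested, IL6-209 and IGFBP6-204, an insulin-like growth factor binding protein (3.30, 1.07 and 0 against 0.673, 1.27 and 2.18 FPKM). Of 15 rows of G proteins and small GTPases, all of GNAS and ARF1, 3 were tested, and ARF1-212, of a GTPase of Golgi vesicle budding, was at 20.2, 6.40 and 10.9 against 11.0, 2.12 and 2.21 FPKM. The lines overlapped at both IGFBP6-204 and ARF1-212. Of 10 rows that symbols placed under cytoskeleton and adhesion, 5 were tested and none was called.

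ACTB-218, of beta-actin, was at 25.9 ± 7.93 and 30.3 ± 6.29 FPKM (SD, n = 3 each), within the spread between libraries. COL4A5-205, of a basement membrane collagen, was at 2.17 ± 0.692 and 1.80 ± 0.498 FPKM. KRTCAP2-208, whose symbol falls under the keratin pattern although the gene encodes an oligosaccharyltransferase subunit, was at 2.78 ± 2.91 and 1.74 ± 0.614 FPKM. None of these 3 differed by more than the spread between libraries.

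In RNA processing and translation, 3 of 6 rows were tested and none was called. EIF3E-204, of a translation initiation factor, went from 0.196 to 12.5 FPKM within A549 and from 0.477 to 14.1 FPKM within A549/DDP, so the spread within each line was far larger than the difference between them. HNRNPL-207 was at 6.70 ± 2.09 and 4.68 ± 1.15 FPKM and HNRNPR-207 at 1.48 ± 0.986 and 2.40 ± 0.977 FPKM. ERCC8-214, of a factor of transcription-coupled DNA repair, was at 3.15, 2.66 and 2.51 against 1.01, 1.39 and 2.24 FPKM, with a log2 fold change of -0.59 (limma adjusted p = 0.249). Neither HNRNPL-207 nor ERCC8-214 has an exonic base or junction of its own. COX7B-202, the only respiratory chain row tested, had a log2 fold change of 0.60 (limma adjusted p = 0.32). The lists were symbol prefixes and miss genes of the same role: GCLC and RBCK1, described above, are in neither the glutathione nor the ubiquitin list. Of the 7 rows under the transporter prefixes, those tested were TMEM182-209 and TMEM67-215, which are membrane proteins not known as transporters. No row was tested under the zinc finger (3 rows) or ubiquitin (1 row) prefixes, and the symbol prefixes for histones and for glutathione, aldo-keto and aldehyde enzymes matched no coding-span row.

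The 3 RPS10 rows had the highest means over the 6 libraries, although GNAS-237 was above their sum in A549 replicate 2. The rows of RPS10, a protein of the small ribosomal subunit, have the same 495-base coding sequence, that of the MANE Select transcript, and differ outside it. RPS10-203 was at 107, 36.0 and 53.9 FPKM in A549 and at 72.1, 116 and 29.0 FPKM in A549/DDP. RPS10-202 and RPS10-206 spread as widely within a line. Summed, they were at 229, 76.7 and 168 against 181, 218 and 136 FPKM (exact permutation test, two-sided, p = 0.7). RPS10-NUDT3 overlaps them on the same strand and RPS10 has 14 named pseudogenes, so these levels are uncertain.

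**Figure D5:**
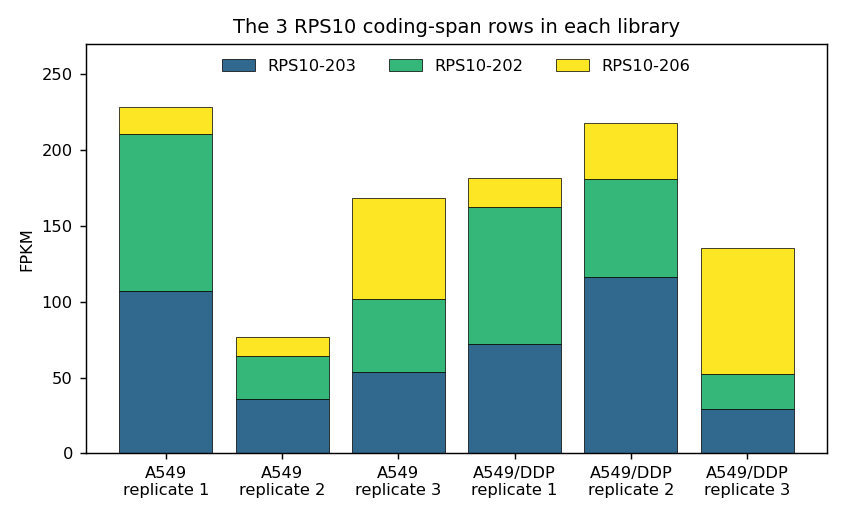
Stacked bars give the FPKM of the 3 RPS10 coding-span rows in each library, from 0. The sum runs from 76.7 FPKM in A549 replicate 2 to 229 FPKM in A549 replicate 1, and the part of RPS10-206 from 12.2 to 83.1 FPKM.

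RPS10 made up 18.1% to 49.5% of the summed FPKM of all coding-span rows. The sum of all coding-span rows was 475 ± 66.3 FPKM in A549 and 423 ± 29.0 FPKM in A549/DDP (SD, n = 3 each, exact permutation test, two-sided, p = 0.4). As shares of the library sums these were 0.786% and 0.629%, and the lines did not overlap (exact permutation p = 0.1). Without RPS10 the sum was 317 ± 32.3 and 245 ± 19.7 FPKM, which is 0.524% and 0.363% of the library sums. Every A549 library was above every A549/DDP library in both measures (exact permutation p = 0.1 for each, the smallest that 3 against 3 libraries allow). The separation of the FPKM sum rested on GNAS-237. Without that row too, a choice made after seeing the data, the sum was 277 ± 28.2 and 245 ± 19.7 FPKM. The lines then overlapped in the sum (exact permutation p = 0.3). The shares of 0.457% and 0.363% of the library sums still did not overlap (exact permutation p = 0.1). The library sums themselves were 60518.1 ± 2300 FPKM in A549 and 67423.5 ± 1978 FPKM in A549/DDP. Every A549/DDP library had a larger sum than every A549 library (exact permutation p = 0.1). Shares in A549/DDP are taken of that larger sum. A lower share is therefore no support by itself for a fall in the FPKM of coding-span rows.

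Of the 262 genes, 48 had more than 1 coding-span row. GIGYF2, with 10 rows, summed to 2.63 ± 1.02 and 2.24 ± 0.181 FPKM, and only 1 of the rows was tested. Both rows of TLE1 were tested, and their sum was 2.30, 3.32 and 4.58 against 1.21, 0.506 and 0.973 FPKM. TASOR2, a relative of a subunit of a gene-silencing complex, summed to 0.639, 4.65 and 1.31 against 4.93, 6.74 and 7.01 FPKM over its 2 rows. TNC, the extracellular matrix protein tenascin-C, summed to 1.24, 0.291 and 1.29 FPKM in A549 and was listed at 0 in A549/DDP, but neither of its rows passed the filter. These genes are examples out of the 48, and their sums were not tested. In others the lines overlapped, as at ARF1 (21.7, 7.33 and 12.4 against 12.1, 5.92 and 3.86 FPKM), CALM2, LEPROT, HNRNPR and TWNK.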

How the data were processed

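RNA of 3 A549 and 3 A549/DDP libraries (rRNA-depleted, strand-keeping kit, Illumina sequencing) was analysed as FPKM per transcript, as deposited by the authors. By the methods of the study the reads were trimmed with Trimmomatic, aligned to hg38 with HISAT2 and quantified with Cufflinks tools. The submitters' processing notes name CASAVA, HISAT2, StringTie and DESeq2, and which of them made the values is not stated. Rows were matched to GENCODE 44 by gene ID and exact span (87.1% matched). The 20663 rows that reached 0.5 FPKM in 3 or more libraries were fitted with limma 3.58.1 (R 4.3.3, mean-variance trend) on log2(FPKM + 1), with Benjamini-Hochberg adjustment over all of them. A row was called when its adjusted p was below 0.01 and its log2 fold change above 1 or below -1. No count test was run, as depth is unknown.

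The fit was tested on simulated data in 2 ways. In the first, rows of any level were changed and spread was each row's own. It recovered almost none of the changed rows, at any fold. The second was added after that and is easier, with rows of 5 FPKM or more and limma's moderated spread, and there many rows were recovered only at the largest folds. The simulations differ in both level and spread, so which of them limits recovery was not separated. Both changed only a small part of the tested rows, while in the data 21.7% of rows had an unadjusted p under 0.05. Recovery in the data may therefore differ from that in the simulations. Power was low in these settings, and a row that was not called may still differ.

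The members, lists and rules were chosen with earlier results of these data known. Named rows were those called, the 10 highest and 10 lowest fold changes among tested rows whose lines do not overlap, the 10 highest means, rows at 0 in 1 line and 0.5 FPKM or more throughout the other, and up to 4 tested rows per role list. Role lists were symbol prefixes, so RPS6KA3, CCN6, KRTCAP2, TMEM67 and TMEM182 fall in lists whose role they do not have and HRAS, GCLC and RBCK1 in none. HAX1-201, CD247-201, PRR23E-201, ENST00000611641, GNAS-233, TNC and GIGYF2 were named after their values were seen. Alternatives were other pseudocounts, filters, scalings and tests, a replicate block and leaving out each library.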

Additional observations from a re-analysis of the deposited data

How the results depend on the processing

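The count of 2 coding-span rows called was 1 (GNAS-237) at a pseudocount of 0.1 and 1 at 0.01, and 0 without a filter on low values, 0 with limma's treat against a 2-fold change and 0 with the replicate number as a block. Leaving out each library gave 0 in every case. With an A549 library left out and the filter applied again, neither called row was tested, so those counts were fixed in advance. It was 2, the same rows, with a 2 FPKM filter, quantile normalization, median-ratio scaling or array weights, and 2 with spans that match 1 row and 1 transcript. Gene sums also gave 2, but for IL6 and SPX. The causes were not tested. IL6-209 kept its direction, with adjusted p from 0.00315 to 0.0843, and so did GNAS-237, from 0.0035 to 0.0683. Same-numbered libraries did not deviate together (correlations 0.015, -0.033 and -0.0099), and no label says that they share a culture or a run. Whether the block has a design behind it is unknown. Calls against the rest of the gene stayed at 0 under the 10 alternatives run. Of 39 named rows tested, 31 kept their sign in every alternative. The other 8 changed sign in at least 1 and were called in none. No named row gained a call. Depth is unknown, which limits low rows most.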
